A study of Mus musculus with 12 samples.

Results

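The p53 targets for growth arrest and feedback were followed through acetaminophen injury of mouse liver with and without Pml. Of the 10 listed genes (Trp53, Mdm2, Cdkn1a, Btg2, Ccng1, Plk2, Plk3, Trp53inp1, Phlda3 and Zmat3), 9 had a probe set that carried their symbol alone. All 9 passed the filter on mean signal and were among 17052 tested genes, of 18820 with such a probe set. Trp53 itself was not analysed here. Zmat3 had a further probe set shared with another gene symbol, which was not used.

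Liver RNA of female BALB/cByJ mice aged 2.5 months was measured on 12 arrays of the Affymetrix Mouse Gene 1.1 ST type, in 6 groups of 2. Mice were Pml wt or Pml KO. Each genotype was either untreated or given 300 mg/kg acetaminophen (APAP) intraperitoneally in warmed PBS and killed 2 h or 6 h later. All groups share the strain, sex and age, while the sources used here give neither a vehicle injection of untreated mice nor the deleted part of Pml. The labels do not say that each array is a separate animal, so p-values measure only the spread between these samples.

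The protein p53 is a transcription factor that is kept low by the ubiquitin ligase Mdm2 and is stabilised by DNA damage and other stress. It then raises a set of genes that stop the cell cycle, such as Cdkn1a, and a set that feeds back on p53 itself, with Mdm2 at its head. Pml is the scaffold of PML nuclear bodies, where p53 and several of its modifying enzymes are known to meet. Acetaminophen is oxidised in hepatocytes to a reactive metabolite that depletes glutathione. Several p53 targets, Btg2 and Plk3 among them, are also known as early response genes that stress and growth signals raise without p53.

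The promoters of Cdkn1a, Btg2, Plk3 and Plk2 are shown because these genes followed different courses over time and genotype. Each sequence is the 250 bases before a RefSeq start on GRCm38.p6, written 5′ to 3′ on the strand of the gene. Capitals mark matches to the p53 half-site and to TGACG, the core of the cyclic AMP response element, searched on both strands. The windows are chr17:29090729-29090978 on the plus strand for Cdkn1a, chr1:134079156-134079405 on the minus strand for Btg2, chr4:117133964-117134213 on the minus strand for Plk3 and chr13:110394794-110395043 on the plus strand for Plk2.
Cdkn1a: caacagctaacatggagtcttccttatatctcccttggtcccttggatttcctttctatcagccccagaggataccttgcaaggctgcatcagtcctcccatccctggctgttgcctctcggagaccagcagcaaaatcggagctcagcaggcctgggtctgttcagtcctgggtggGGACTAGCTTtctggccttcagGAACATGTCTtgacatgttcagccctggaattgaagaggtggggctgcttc
Btg2: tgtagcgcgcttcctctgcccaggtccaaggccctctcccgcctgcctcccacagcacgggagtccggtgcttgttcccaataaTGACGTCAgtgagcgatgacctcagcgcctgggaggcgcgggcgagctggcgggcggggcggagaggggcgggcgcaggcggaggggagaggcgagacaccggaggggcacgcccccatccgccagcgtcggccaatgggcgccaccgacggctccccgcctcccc
Plk3: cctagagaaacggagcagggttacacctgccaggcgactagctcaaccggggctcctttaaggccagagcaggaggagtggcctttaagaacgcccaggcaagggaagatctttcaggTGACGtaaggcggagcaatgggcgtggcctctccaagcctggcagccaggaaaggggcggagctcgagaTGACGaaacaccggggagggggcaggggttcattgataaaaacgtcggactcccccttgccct
Plk2: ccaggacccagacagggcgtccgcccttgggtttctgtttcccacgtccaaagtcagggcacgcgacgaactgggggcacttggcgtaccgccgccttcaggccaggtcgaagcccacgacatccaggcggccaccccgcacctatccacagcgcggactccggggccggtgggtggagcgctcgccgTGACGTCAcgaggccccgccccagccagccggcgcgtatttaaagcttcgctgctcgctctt

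The Cdkn1a window holds a pair of half-sites, at -73 to -64 and -51 to -42 from the start (-1 is the base just before it), which together match the p53 site of 2 half-sites with 0 to 13 bases between them. Such a pair lay in 21 of 32841 windows of this length (0.0639%) and in 1 of the 8 members with a window. Cdkn1a has another RefSeq start further along the gene, whose window (chr17:29093519-29093768) holds neither motif. The pair thus lies in the 250 bases before the upstream start and not in those before the other. A single half-site lay in 7.13% of windows and in 4 members (Trp53, Mdm2, Cdkn1a and Ccng1). The motif TGACG lay in 17.8% of windows and in 3 members, Btg2, Plk2 and Plk3. Its palindrome TGACGTCA, which holds TGACG on both strands, lay in 1.55% of windows and in Btg2 (-166 to -159) and Plk2 (-62 to -55). The AP-1 motif TGANTCA and the serum response factor's CArG box lay in 6.75% and 1.47% of windows and in 0 members. The TATAAA box lay in 12.4% of windows and in Trp53. These matches describe letters in a window and not bound sites.

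Array medians of the normalised intensity were 79.9 to 90.1, and precision is limited by having 2 arrays a group. Log2 Pml was 7.82 to 8.46 in the wt arrays and 7.09 to 7.97 in the KO arrays, and its mean difference over the 3 conditions, KO minus wt, was -0.70 ± 0.14 (SE of the limma fit, adjusted p = 0.035). Quantile normalization took its adjusted p to 0.0638, and leaving out any 1 of 9 arrays to 0.0533 to 0.0991, at -0.75 to -0.63 in these fits. The library labelled untreated KO replicate 2, at 7.97, lay within the wt range. KO 6 h replicate 2 stood apart on the first principal component, at 19.8 against 39.7 in its replicate and 42.9 and 44.8 in wt at 6 h. For most members, KO results at 6 h are therefore also given without it, and differences from untreated without KO 6 h replicate 1 as well. With 2 arrays in the group, neither can be shown to be the atypical one. Single genes of the other lists are given only with both arrays included. The 8 hepatocyte markers were bright in every group, at group means of 10.76 to 13.45 on the log2 scale. Differences below are log2 differences of group means of 2 arrays with the SE of a limma fit over all 12 arrays, with calls made below an adjusted p of 0.05 over all tested genes.

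**Figure D1:**
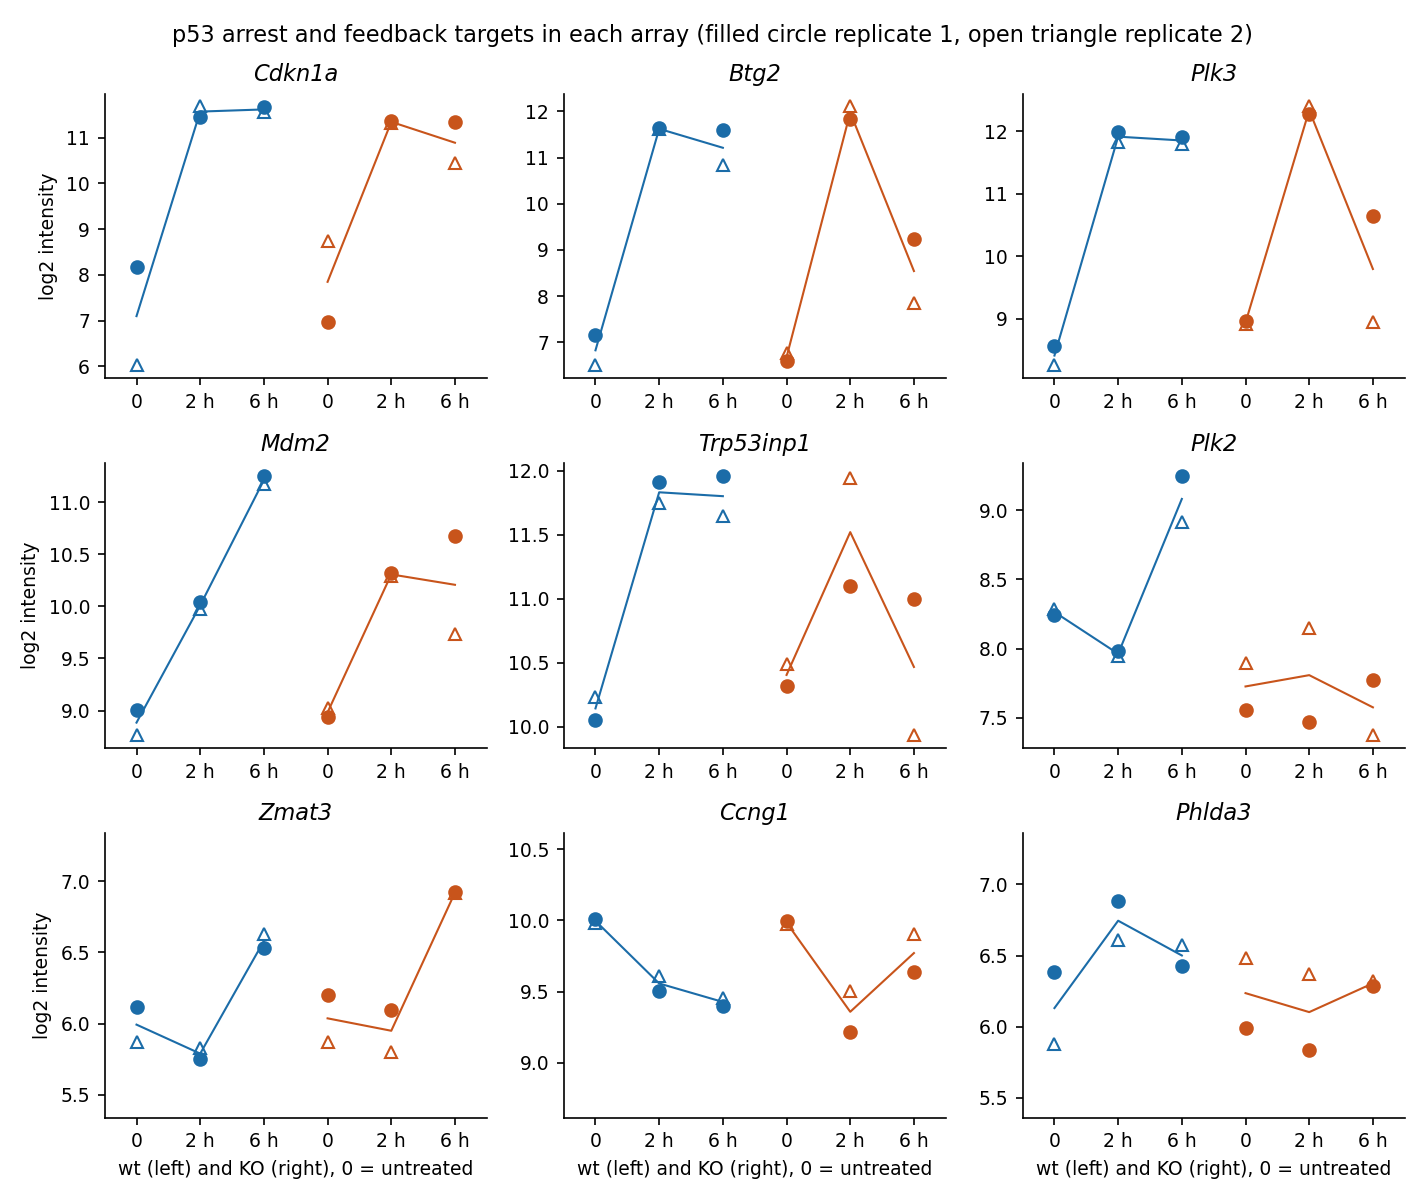
Log2 normalised intensity (vertical axis) of the 9 measured genes in each of the 12 arrays, by condition (horizontal axis) in wt (blue) and KO liver (orange). Filled circles and open triangles are replicates 1 and 2, and lines join the means of 2. Btg2 and Plk3 stand near 12 at 2 h in both genotypes and, at 6 h, near 11 to 12 in wt and 8 to 11 in KO.

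In wt liver at 2 h, the arrest genes Cdkn1a, Btg2 and Plk3 had already risen by more than 10-fold, and Mdm2 and Trp53inp1 by 2.18-fold and 3.22-fold. Ccng1 fell. In all, 5 members were called higher and 1 lower, and Plk2, Phlda3 and Zmat3 did not pass. Among all tested genes 12.7% were called in this comparison. The median difference of the 9 members was 1.12, beside 0.02 over all tested genes. Without wt 2 h replicate 1 only 3 members kept an adjusted p under 0.05.

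At 6 h in wt liver 7 members were called higher and 1 lower, beside 38.4% of all tested genes. Plk2 and Zmat3 had joined the genes called higher, Ccng1 was lower again, and Phlda3 did not pass. The members' median difference was 1.66, beside -0.05 over all tested genes. In KO liver at 2 h 5 members were called higher and 1 lower, beside 31.4% of all genes, at a median of 1.12 against -0.06. By 6 h in KO liver the count was 4 higher and 0 lower, beside 34.9% of all genes, at a median of 0.86 against -0.05. Those 4 were Mdm2, Cdkn1a, Btg2 and Zmat3. The treated groups of a genotype share their untreated arrays, so the 2 h and 6 h counts are not independent.

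**Figure D2:**
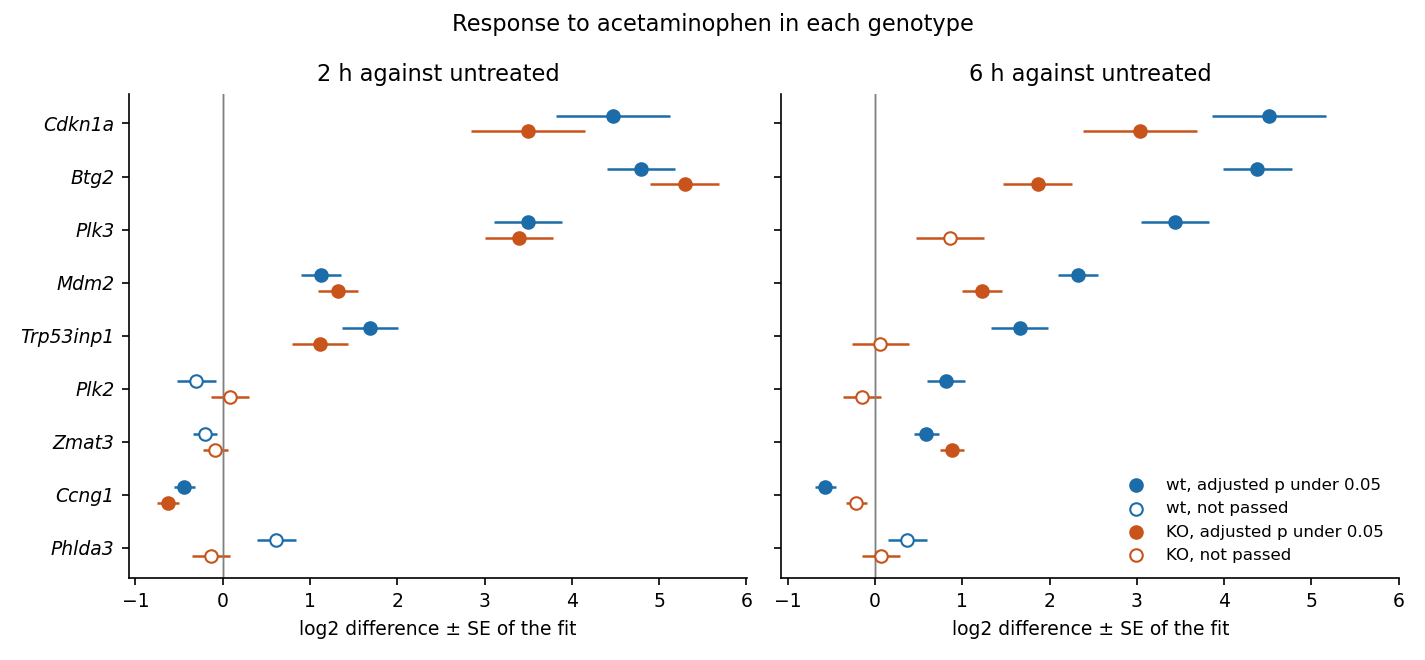
Log2 difference from untreated liver of the same genotype (horizontal axis, with SE of the fit) for each gene at 2 h (left) and 6 h (right), in wt (blue) and KO (orange). Filled points passed at an adjusted p under 0.05. At 6 h Btg2 stands at 4.38 in wt and 1.86 in KO, and Plk3 at 3.44 and 0.86.

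Cdkn1a encodes p21, the inhibitor of cyclin-dependent kinases that carries the p53 arrest in the G1 phase. Its log2 intensity in wt liver was 8.18 and 6.02 before treatment, 11.46 and 11.68 after 2 h and 11.67 and 11.57 after 6 h. KO liver gave 6.96 and 8.74 before treatment, 11.36 and 11.33 after 2 h and 11.34 and 10.44 after 6 h. Every treated array lay above every untreated array of its genotype, while the untreated arrays of each genotype lay 1.77 to 2.16 apart, the widest gaps between replicates among the members. Cdkn1a rose by 4.47 ± 0.65 (22.2-fold, adjusted p = 0.00193) at 2 h and by 4.52 ± 0.65 (22.9-fold, adjusted p = 0.000442) at 6 h in wt. The rises in KO liver were 3.50 ± 0.65 (adjusted p = 0.00338) and 3.04 ± 0.65 (adjusted p = 0.00498). The step from 2 h to 6 h was 0.05 in wt (95% interval -1.40 to 1.5) and -0.46 in KO (-1.90 to 0.99), and neither passed. Without KO 6 h replicate 2 the KO rise at 6 h was 3.49 and the KO step -0.0048. Without KO 6 h replicate 1 they were 2.59 and -0.91.

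Btg2 encodes an antiproliferative protein that recruits the CCR4-NOT deadenylase and slows entry into S phase. In wt liver it stood at 7.16 and 6.50 before treatment, 11.63 and 11.61 after 2 h and 11.59 and 10.83 after 6 h. In KO liver it stood at 6.59 and 6.77 before treatment, 11.84 and 12.11 after 2 h and 9.24 and 7.85 after 6 h. At 2 h the KO arrays lay just above the wt arrays (0.35, 95% interval -0.52 to 1.23), and at 6 h both lay below the lower wt array. The rise at 2 h was 4.79 ± 0.39 in wt (27.7-fold, adjusted p = 9.26e-05) and 5.29 ± 0.39 in KO (39.2-fold, adjusted p = 4.55e-05). At 6 h Btg2 was still 4.38 ± 0.39 above untreated in wt (adjusted p = 3.29e-05), and 1.86 ± 0.39 above it in KO (adjusted p = 0.00456), or 2.56 without KO 6 h replicate 2. From 2 h to 6 h it fell in KO (-3.43 ± 0.39, adjusted p = 0.000253, and -2.73 without KO 6 h replicate 2), and in wt the step of -0.41 did not pass (adjusted p = 0.47).

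Plk3, a polo-like kinase of the stress and DNA damage response, also stood high at 2 h in both genotypes and lower at 6 h in KO. Its wt values were 8.57 and 8.26 before treatment, 11.99 and 11.83 after 2 h and 11.91 and 11.80 after 6 h. Its KO values were 8.96 and 8.92 before treatment, 12.28 and 12.40 after 2 h and 10.64 and 8.96 after 6 h, so that KO 6 h replicate 2 was back within the untreated range and replicate 1 was not. The rise at 2 h was 3.50 ± 0.39 in wt (11.3-fold, adjusted p = 0.000459) and 3.40 ± 0.39 in KO (adjusted p = 0.000408). At 6 h the difference was 3.44 ± 0.39 in wt (adjusted p = 0.000111) and 0.86 ± 0.39 in KO (adjusted p = 0.115). Without KO 6 h replicate 2 the KO difference was 1.70 and passed (adjusted p = 0.000107). Plk3 fell from 2 h to 6 h in KO (-2.54 ± 0.39, adjusted p = 0.00107, and -1.70 without KO 6 h replicate 2). In wt the step of -0.06 did not pass (adjusted p = 0.924).

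Plk2, a related polo-like kinase known for its part in centriole duplication and as a p53 target, rose late in wt liver. It stood at 8.24 and 8.29 in wt liver before treatment, 7.98 and 7.94 after 2 h and 9.25 and 8.92 after 6 h. KO liver gave 7.56 and 7.89 before treatment, 7.47 and 8.15 after 2 h and 7.78 and 7.37 after 6 h. Both wt arrays at 6 h lay above all 10 other arrays, and the KO groups overlapped one another. At 6 h Plk2 was higher in wt by 0.82 ± 0.22 (1.76-fold, adjusted p = 0.0138), a call that ended without wt 6 h replicate 1 (0.65, adjusted p = 0.0981) or either untreated wt array. From 2 h to 6 h it rose in wt by 1.12 ± 0.22 (adjusted p = 0.00483). Its KO differences from untreated were 0.08 at 2 h and -0.15 at 6 h, with 95% intervals of -0.40 to 0.57 and -0.64 to 0.34. Without KO 6 h replicate 2 the latter was 0.05, so its sign rests on that array.

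Mdm2 encodes the ubiquitin ligase that marks p53 for destruction, and its induction by p53 closes the feedback loop. Log2 Mdm2 in wt liver was 9.0 and 8.76 before treatment, 10.05 and 9.97 after 2 h and 11.25 and 11.17 after 6 h. It was 8.94 and 9.03 in KO liver before treatment, 10.32 and 10.3 after 2 h and 10.68 and 9.74 after 6 h. The wt groups climbed in 2 separate steps with close replicates, while the KO arrays at 6 h fell on either side of those at 2 h. In wt the rise by 2 h was 1.12 ± 0.23 (2.18-fold, adjusted p = 0.0111) and by 6 h 2.33 ± 0.23 (5.02-fold, adjusted p = 5.57e-05). In KO the rises were 1.32 ± 0.23 (adjusted p = 0.00244) and 1.22 ± 0.23 (adjusted p = 0.0025), or 1.69 at 6 h without KO 6 h replicate 2. The wt call at 2 h ended without untreated wt replicate 2 (adjusted p = 0.0902) or either wt 2 h array. The later step was 1.2 ± 0.23 in wt (adjusted p = 0.00441) and -0.10 ± 0.23 in KO (adjusted p = 0.771). The KO value depends on which array is kept: it was 0.37 (adjusted p = 0.0768) without KO 6 h replicate 2, and -0.57 and called lower (adjusted p = 0.0139) without KO 6 h replicate 1.

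Ccng1 encodes cyclin G1, which brings the phosphatase PP2A to Mdm2 and is among the p53 targets most often used as a readout. Its values were 10.01 and 9.98 in wt liver before treatment, 9.5 and 9.61 after 2 h and 9.40 and 9.45 after 6 h. KO liver stood at 10.00 and 9.97 before treatment, 9.21 and 9.5 after 2 h and 9.64 and 9.91 after 6 h. All treated arrays lay below the untreated arrays of their genotype, unlike the members that rose. Ccng1 fell in wt by 2 h (-0.44 ± 0.12, adjusted p = 0.0445) and 6 h (-0.57 ± 0.12, adjusted p = 0.00483). It fell in KO by 2 h (-0.63 ± 0.12, adjusted p = 0.00454). The KO difference of -0.21 at 6 h did not pass (adjusted p = 0.213), nor did that of -0.35 without KO 6 h replicate 2 (adjusted p = 0.0874). The wt call at 2 h ended with no filter on the mean (adjusted p = 0.0514) and without any 1 of 8 arrays, the exceptions being the 4 KO arrays after APAP.

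Trp53inp1 encodes a nuclear stress protein that promotes the phosphorylation of p53. It read 10.05 and 10.23 in wt liver before treatment, 11.91 and 11.75 after 2 h and 11.96 and 11.64 after 6 h. It read 10.32 and 10.49 in KO liver before treatment, 11.10 and 11.94 after 2 h and 11.00 and 9.93 after 6 h. In KO liver 1 of the arrays at 6 h lay above the untreated arrays and the other below them. The rise in wt by 2 h was 1.69 ± 0.33 (adjusted p = 0.00815, and 0.0513 or 0.0672 on leaving out replicate 1 of untreated wt or of wt 2 h), and by 6 h 1.66 ± 0.33 (adjusted p = 0.00266). In KO it was 1.12 ± 0.33 at 2 h (adjusted p = 0.0255), a call that ended without either untreated KO array or KO 2 h replicate 2 (0.69, adjusted p = 0.172). At 6 h in KO the difference was 0.06 ± 0.33 (adjusted p = 0.902), and 0.59 without KO 6 h replicate 2 (adjusted p = 0.154). The fall from 2 h to 6 h in KO (-1.05 ± 0.33, adjusted p = 0.0321) lost its call without KO 6 h replicate 2 (-0.52, adjusted p = 0.234) or KO 2 h replicate 2 (-0.63, adjusted p = 0.225).

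Zmat3 encodes an RNA-binding zinc finger protein, also called Wig-1. It stood at 6.11 and 5.87 in wt liver before treatment, 5.75 and 5.83 after 2 h and 6.53 and 6.63 after 6 h. In KO liver it stood at 6.2 and 5.87 before treatment, 6.09 and 5.80 after 2 h and 6.92 and 6.91 after 6 h. The 6 h arrays were the highest of each genotype, and Zmat3 was the only member with a higher mean at 6 h in KO than in wt and a rise from untreated that passed in both. It rose at 6 h by 0.59 ± 0.14 in wt (adjusted p = 0.00833) and by 0.88 ± 0.14 in KO (1.84-fold, adjusted p = 0.001). The wt call ended without untreated wt replicate 2 (0.47, adjusted p = 0.0785). The unused probe set that lists a second symbol beside Zmat3 ranged from 6.16 to 6.73 over the 12 arrays and took another course. In wt it was 6.25 and 6.2 before treatment, 6.64 and 6.62 after 2 h and 6.73 and 6.34 after 6 h, and in KO 6.16 and 6.3, then 6.5 and 6.49, then 6.35 in both. Its 6 h arrays thus also lay above the untreated arrays of their genotype, but its 2 h arrays did too, and in KO these were the highest.

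Phlda3 encodes a small pleckstrin homology protein that competes with Akt for membrane lipids. It was dim and moved little, at 6.38 and 5.88 in wt liver before treatment, 6.88 and 6.61 after 2 h and 6.43 and 6.57 after 6 h. KO liver gave 5.99 and 6.48 before treatment, 5.84 and 6.37 after 2 h and 6.29 and 6.32 after 6 h. No comparison of Phlda3 passed, and its largest difference from untreated was 0.61 ± 0.22 in wt at 2 h (adjusted p = 0.101, 95% interval 0.12 to 1.11).

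The step from 2 h to 6 h asks whether a gene kept its level. In wt liver 3 members were called higher and 0 lower at 6 h against 2 h, namely Mdm2, Plk2 and Zmat3, beside 27.7% of all tested genes. In KO liver 2 were called higher (Ccng1 by 0.41 ± 0.12, adjusted p = 0.0292, and Zmat3) and 3 lower (Btg2, Plk3 and Trp53inp1), beside 31.7% of all genes. The KO count was 3 in all without KO 6 h replicate 2. Ccng1 lost its call there without that array (0.28, adjusted p = 0.188), on leaving out KO 2 h replicate 1 (0.27, adjusted p = 0.172) and after quantile normalization (adjusted p = 0.0871).

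**Figure D3:**
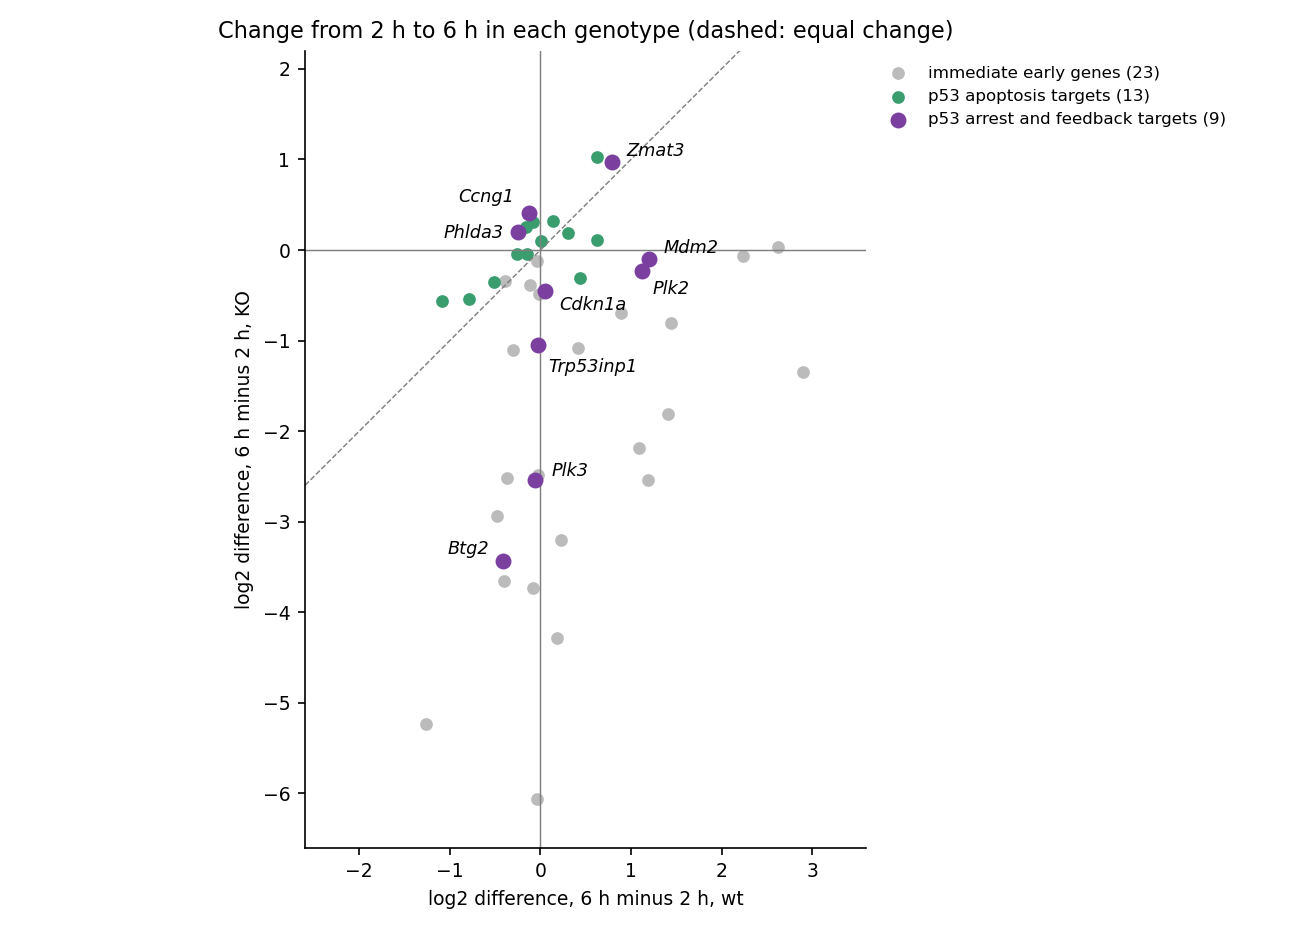
Change from 2 h to 6 h on the log2 scale in wt (horizontal axis) and KO liver (vertical axis), for the 9 members (purple), 13 p53 targets for apoptosis (green) and 23 immediate early genes (grey). The dashed line marks an equal change; Zmat3, Ccng1 and Phlda3 lie above it, and Btg2 lies at -0.41 in wt and -3.43 in KO.

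The difference between these steps, KO minus wt, was tested as an interaction, and 4 members passed, all lower in KO, beside 7.03% of all genes. These were Btg2 (-3.02 ± 0.56, adjusted p = 0.0214), Plk3 (-2.48 ± 0.55, adjusted p = 0.0346), Plk2 (-1.35 ± 0.31, adjusted p = 0.0361) and Mdm2 (-1.30 ± 0.33, adjusted p = 0.044). Trp53inp1 stood at -1.02 ± 0.46 (adjusted p = 0.193) and Cdkn1a at -0.50 ± 0.92 (adjusted p = 0.777), the latter with a 95% interval of -2.55 to 1.55. All 4 calls were lost without wt 2 h replicate 1, wt 2 h replicate 2 or wt 6 h replicate 1. Btg2 alone was left on leaving out any 1 untreated array or KO 2 h replicate 2. Leaving out KO 2 h replicate 1 left Btg2 and Plk2, and leaving out KO 6 h replicate 2 left Btg2 and Plk3. The differences of the 4 kept their sign with each array left out, at -3.72 to -2.32 for Btg2, -3.32 to -1.64 for Plk3, -1.69 to -1.01 for Plk2 and -1.77 to -0.83 for Mdm2.

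KO against wt at one condition asks whether the lack of Pml goes with another level of these genes. In untreated liver 0 of 9 members passed in limma (1 at an unadjusted p under 0.05, Plk2 at -0.54), beside 0.00586% of all genes. At 2 h 0 passed (1 at an unadjusted p under 0.05, Phlda3 at -0.64), beside 2.01% of all genes. At 6 h 5 members were called lower in KO and 0 higher, beside 9.02% of all genes. Btg2 was 6.35-fold lower (-2.67 ± 0.39, adjusted p = 0.00572) and Plk3 4.15-fold lower (-2.05 ± 0.39, adjusted p = 0.0144). Plk2 was 2.84-fold lower (-1.51 ± 0.22, adjusted p = 0.00567), Trp53inp1 2.52-fold (-1.33 ± 0.33, adjusted p = 0.0332) and Mdm2 2.01-fold (-1.0 ± 0.23, adjusted p = 0.0278). Cdkn1a at -0.73 ± 0.65 did not pass (adjusted p = 0.501), with a 95% interval of -2.18 to 0.72, and stood at -0.28 without KO 6 h replicate 2. Ccng1 (0.34, adjusted p = 0.104) and Zmat3 (0.34, adjusted p = 0.15) stood higher in KO and did not pass. The 2 arrays of each genotype at 6 h did not overlap in any of the 9 members, 7 lower and 2 higher in KO, beside 56.7% of all tested genes (27% lower and 29.7% higher).

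**Figure D4:**
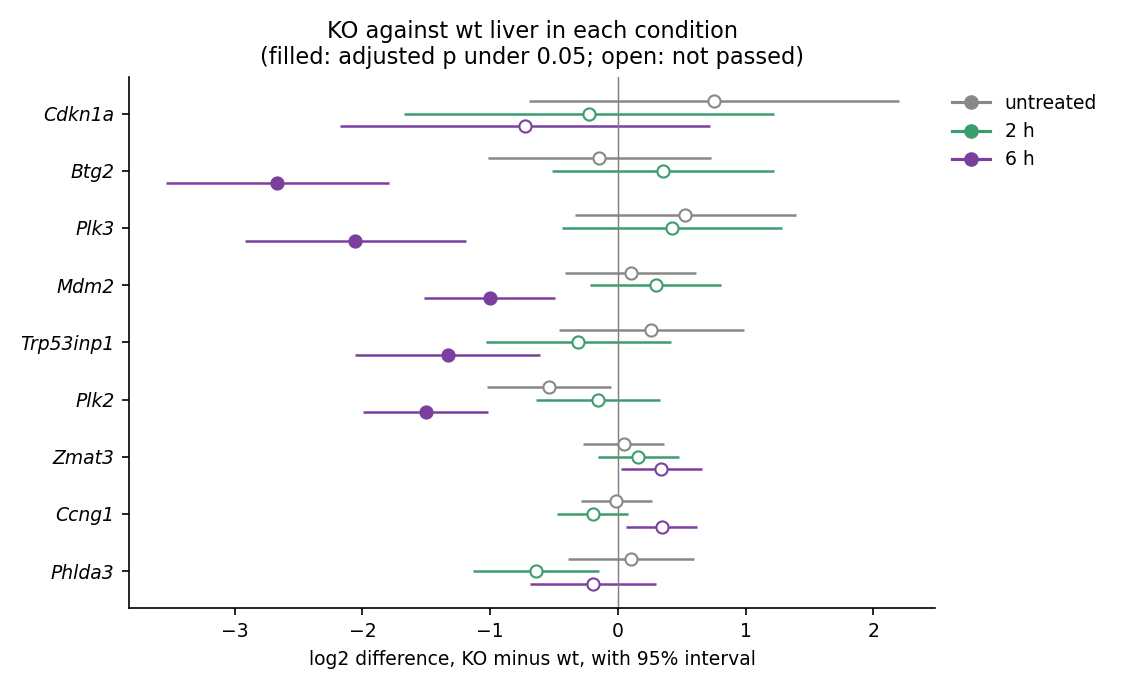
Log2 difference, KO minus wt (horizontal axis, with 95% interval), of each gene in untreated liver (grey) and 2 h (green) and 6 h (purple) after APAP. Filled points passed at an adjusted p under 0.05, which 5 genes did at 6 h and 0 in the other conditions.

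These genotype calls at 6 h rest on few arrays. Without wt 6 h replicate 1 all 5 were lost, at -2.29 for Btg2 (adjusted p = 0.0581), -1.34 for Plk2 (adjusted p = 0.0577), -2.0 for Plk3 (adjusted p = 0.106), -0.97 for Mdm2 (adjusted p = 0.164) and -1.18 for Trp53inp1 (adjusted p = 0.204). Without KO 6 h replicate 2 3 were kept, Btg2 at -1.97 (adjusted p = 0.0245), Plk3 at -1.21 (adjusted p = 0.00909) and Plk2 at -1.30 (adjusted p = 0.049). Without wt 6 h replicate 2 3 were kept as well, Mdm2 and Trp53inp1 being lost (adjusted p = 0.0594 and 0.0544).

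Averaged over the 3 conditions, Plk2 alone was called, 1.66-fold lower in KO (-0.73 ± 0.13, adjusted p = 0.0234), beside 1.78% of all genes. Leaving out any 1 of 7 arrays raised its adjusted p to 0.0533 to 0.0769. The KO response minus the wt response passed for 0 members in limma at 2 h (1 at an unadjusted p under 0.05, Phlda3 at -0.75), beside 0.0293% of all genes. At 6 h it passed for 0 members as well (5 at an unadjusted p under 0.05), beside 0.487% of all genes, with Plk3 at -2.58 ± 0.55 (adjusted p = 0.08) and Btg2 at -2.52 ± 0.56 (adjusted p = 0.0837). Without KO 6 h replicate 1 it passed for 4 members, among them Btg2 at -3.22 (adjusted p = 0.00614) and Mdm2 at -1.57 (adjusted p = 0.00299). Leaving out the other array of that group, it passed for Plk3 alone at -1.74 (adjusted p = 0.013).

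Among all tested genes 9.02% were called between genotypes at 6 h. No tested marker of lymphocytes, or of stellate cells and fibroblasts, was called in that comparison. Markers of other cell types were, those of neutrophils in the largest share. Their summed intensity, over 7 of 8 listed markers, was 383 to 490 in wt arrays untreated and at 2 h, and 2054 and 4304 in wt at 6 h. It was 398 to 780 in KO arrays untreated and at 2 h, and 455 and 566 in KO at 6 h. Of the 7, 6 were called higher in wt at 6 h and 6 lower in KO than in wt at 6 h, with S100a8 at -2.40 and Cxcr2 at -2.98. In KO at 6 h S100a8 (0.18) and Cxcr2 (0.40) did not pass against untreated. The dimmest of them had a group mean of 3.66 in untreated wt liver, and none was listed at 0. Kupffer cell markers summed to 3785 to 4425 in wt and 4757 to 5125 in KO at 6 h, from 5824 to 6709 in the untreated arrays. Of 9 Kupffer cell markers Adgre1 alone was called between genotypes at 6 h, higher in KO (0.80), which is near the share of all tested genes. Of 8 endothelial markers 2 were called lower in KO, Pecam1 (-0.66, adjusted p = 0.0088) and Cdh5 (-0.85, adjusted p = 0.0103). The others did not pass and went both ways. Kdr (0.50), Clec4g (0.22) and Fcgr2b (0.01) stood higher in KO, and Stab1 (-0.27), Stab2 (-0.30) and Lyve1 (-1.51) lower. The endothelial list summed to 6484 and 7422 in the wt arrays at 6 h and to 5304 and 6059 in the KO arrays. Of 4 bile duct markers 2 were called lower in KO, Krt19 (-0.74, adjusted p = 0.0437) and Krt7 (-0.55, adjusted p = 0.0343), with sums of 726 and 1004 in wt and 398 and 848 in KO. Of the 8 hepatocyte markers, the gluconeogenic Pck1 (-1.36, adjusted p = 0.000243) and Tat (-0.74, adjusted p = 0.00507) were called lower in KO. The rest differed little and did not pass: Alb (-0.01), Apoa1 (-0.03), Ttr (-0.06), Cps1 (-0.02), Cyp2e1 (-0.01) and Hnf4a (0.09). All 8 summed to 56024 and 57062 in wt and 49163 and 51134 in KO at 6 h. The part of these cells in the members' values was not tested, and in whole liver fewer cells of a type and less RNA per cell cannot be told apart.

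The other p53 targets were counted beside the shares of all tested genes given above. Of 13 p53 targets for apoptosis, 2 rose and 0 fell in wt at 2 h, 2 rose and 4 fell in wt at 6 h, 1 rose and 3 fell in KO at 2 h, and 2 rose and 3 fell in KO at 6 h. Tnfrsf10b, a death receptor, rose in all 4, by 0.66 ± 0.11 and 1.29 ± 0.11 in wt and by 0.39 ± 0.11 and 0.50 ± 0.11 in KO, and was lower in KO than in wt at 6 h (-0.61, adjusted p = 0.0123). The nuclease gene Aen rose at 6 h in both genotypes (0.98 ± 0.16 and 0.81 ± 0.16). The death receptor gene Fas fell at 6 h in both (-0.79 ± 0.18 and -1.41 ± 0.18), and so did Ei24 (-0.52 ± 0.11 and -0.55 ± 0.11). These are 15.4%, 46.2%, 30.8% and 38.5% of the list, near the 12.7%, 38.4%, 31.4% and 34.9% of all tested genes. Median differences of this list were 0.03, -0.10, -0.12 and -0.22 in the same order. With an array left out in turn the counts called ranged from 1 to 3, 4 to 7, 1 to 4 and 3 to 7, and Tnfrsf10b was among 2 genes of the list lower in KO at 6 h, a count of 0 without wt 6 h replicate 1 or KO 6 h replicate 2.

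Among 14 p53 targets for repair and metabolism, 3 rose and 0 fell in wt at 2 h, 6 rose and 0 fell in wt at 6 h, 4 rose and 2 fell in KO at 2 h, and 2 rose and 3 fell in KO at 6 h. The shares called, 21.4%, 42.9%, 42.9% and 35.7%, compare with 12.7%, 38.4%, 31.4% and 34.9% of all genes, and those at 6 h are near that background. Gadd45a, a stress sensor of DNA repair and arrest, differed by 3.59 ± 0.59 in wt at 6 h (adjusted p = 0.000936) and by 1.22 ± 0.59 in KO (adjusted p = 0.135), and was lower in KO at 6 h (-2.36 ± 0.59, adjusted p = 0.0364). Lpin1, a phosphatidate phosphatase, rose by 2.64 ± 0.36 in wt and 2.02 ± 0.36 in KO at 2 h, then stood at 1.63 ± 0.36 in wt and -1.05 ± 0.36 in KO at 6 h, both past the test. Ddit4, an inhibitor of mTORC1, was lower in KO at 6 h too (-1.42 ± 0.28, adjusted p = 0.0171), and Sesn2, a leucine sensor of that pathway, rose in both genotypes (1.74 ± 0.32 and 0.91 ± 0.32). Medians were 0.37, 0.08, 0.25 and -0.08. The counts called ranged from 1 to 5, 6 to 7, 1 to 7 and 0 to 4 with an array left out, 0 being the count for KO at 6 h without KO 6 h replicate 1 or untreated KO replicate 2. The 3 repair and metabolism genes called lower in KO at 6 h were not called without wt 6 h replicate 1 or KO 6 h replicate 2.

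Regulators of p53 set its stability and activity. Of 16 regulators, 1 rose and 1 fell in wt at 2 h, 4 and 2 in wt at 6 h, 1 and 4 in KO at 2 h, and 5 and 1 in KO at 6 h, with medians of -0.09 to 0.28. The shares called (12.5%, 37.5%, 31.2% and 37.5%) are near those of all tested genes. Atm, the kinase that signals double-strand breaks to p53, fell at 6 h in wt (-1.0 ± 0.18) and KO (-0.93 ± 0.18), and Hipk2, a kinase of p53, in wt (-0.49 ± 0.12). Usp7, a deubiquitinase of Mdm2 and p53, rose at 6 h in both (0.40 ± 0.11 and 0.51 ± 0.11), and Kat5, an acetyltransferase of p53, by 0.36 ± 0.10 and 0.45 ± 0.10. Counts of regulators called ranged from 0 to 1, 2 to 6, 2 to 5 and 2 to 8 with an array left out.

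Among 15 relatives of the members, Mdm4, the partner of Mdm2, differed from untreated by 0.00 to 0.30 and did not pass. Cyclin G2 (Ccng2) rose in wt at 6 h by 1.37 (adjusted p = 0.0184) and Plk4 by 2.49 (adjusted p = 0.017), neither passing in KO. Tob1, of the family of Btg2, fell at 6 h in wt (-1.31 ± 0.15) and KO (-1.07 ± 0.15), and Tob2 rose at 2 h by 0.74 ± 0.15 and 0.58 ± 0.15. Cdkn1c, of the family of Cdkn1a, rose in KO at 6 h by 0.95 ± 0.17 (adjusted p = 0.00188). Trp53inp2, the relative of Trp53inp1, was higher in KO than in wt at 6 h by 1.28 ± 0.18 (adjusted p = 0.00437). Phlda1 rose in wt at 6 h by 2.31 (adjusted p = 0.007). The list had 2 called in wt at 2 h, 7 at 6 h, 1 in KO at 2 h and 3 at 6 h, with ranges of 1 to 3, 3 to 8, 0 to 3 and 3 to 5 when an array was left out. As shares these are 13.3%, 46.7%, 6.67% and 20%, near or below those of all tested genes.

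Of 19 cell cycle genes, 10 fell and 0 rose in KO at 2 h, 52.6% beside 31.4% of all genes called. In wt at 2 h 0 fell and 1 rose, beside 12.7% of all genes. Mcm6, Mcm4 and Mcm2 of the replicative helicase stood at -1.49 ± 0.18, -1.05 ± 0.14 and -1.01 ± 0.16 in KO at 2 h, and the S phase regulator E2f1 at -0.87 ± 0.12, all past the test. At 6 h 2 rose and 3 fell in wt, a share below the 38.4% of all tested genes called. In KO at 6 h 1 rose and 7 fell, a share near the 34.9% of all tested genes. There E2f1 stood at -0.84 ± 0.12 and Mcm6 at -0.69 ± 0.18. Counts of 8 to 10 were called in KO at 2 h, 2 to 5 in wt at 6 h and 3 to 9 in KO at 6 h with an array left out. The genotypes' 2 h responses differed by -1.43 ± 0.26 for Mcm6, which did not pass (adjusted p = 0.118), so the response was not shown to differ between them.

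Immediate early genes, among which Btg2 and Plk3 are often counted, are the fast transcriptional response to signals. Of 23, 16 rose in wt and 20 in KO at 2 h, and 0 fell in either, 69.6% and 87% of the list beside 12.7% and 31.4% of all tested genes. At 6 h 19 rose in wt (82.6% called, beside 38.4%), and in KO 11 rose and 1 fell (52.2%, beside 34.9%). From 2 h to 6 h 4 rose and 0 fell in wt, a share below the 27.7% of all tested genes called. In KO 0 rose and 16 fell over that step (69.6%, beside 31.7%). At 6 h 15 were lower in KO than in wt (65.2%, beside 9.02%). Fos stood 5.43 ± 0.32 above untreated in wt and 1.48 ± 0.32 in KO at 6 h, Egr2 2.84 ± 0.25 and 0.84 ± 0.25, and Ier2 2.59 ± 0.22 and 0.17 ± 0.22, the last not passing. Atf3 stood at 6.62 ± 0.39 in wt and 6.37 ± 0.39 in KO at 6 h. The late step differed between genotypes in 17 of 23, all lower in KO (beside 7.03% of all genes), at a median of -2.47 beside 0.09 over all genes. That count was 3 without wt 6 h replicate 1 or wt 2 h replicate 2, 4 without wt 2 h replicate 1 and 10 without KO 6 h replicate 2, and the 15 lower at 6 h became 6 without wt 6 h replicate 1 or KO 6 h replicate 2.

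The genes whose 12 centred log2 values lay nearest each member were found by their root mean square difference, a description with no test. Nearest to Btg2 were Jun (0.30), Egr1 (0.52) and Ciart (0.57), where Btg2 itself varied by 2.25 about its mean. Nearest to Plk3 were Junb (0.43), Trib1 (0.43) and Fosl2 (0.48). Mdm2 lay nearest Ets2 (0.16), Trib3 (0.21) and Nt5dc3 (0.22), and Cdkn1a nearest the metallothionein genes Mt2 (0.62) and Mt1 (0.63) and Vnn1 (0.68). For Trp53inp1 they were C9orf72 (0.19), Tgfb3 (0.26) and Bmp10 (0.28), and for Plk2 Hk1 (0.22), Mmp9 (0.24) and Ifngr1 (0.26). Zmat3 lay nearest E2f4 (0.08), Nacc1 (0.10) and Wdr5 (0.10), and Ccng1 nearest Dpagt1 (0.04), Krtcap2 (0.07) and Mrpl52 (0.07), both with members that varied little themselves (0.41 and 0.27). Among the 3 members that rose most, Btg2 and Plk3 lay 0.73 apart, Cdkn1a and Plk3 0.98, and Cdkn1a and Btg2 1.07.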

How the data were processed

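Groups (6 of 2 one-colour arrays) follow the titles, except that a wt 2 h array whose title is cut short was placed by source name. Per the submitters' processing notes the authors used RMA in Affymetrix Expression Console (version not stated). What they deposited is normalized intensity, linear in scale, which was converted to log2 with no pseudocount added. Symbols came from the platform's probe set annotation, of 35556 probe sets 21218 with 1 symbol, 1881 with several and 12457 with none. Genes used their brightest single-symbol probe set and needed a mean log2 of at least 5. The model (limma 3.58.1, R 4.3.3; lmFit, then eBayes) had 6 group means and 6 residual degrees of freedom, with 13 comparisons, two-sided p-values and Benjamini-Hochberg adjustment over all tested genes within each. The fit was tested on simulated data.

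The members and lists were chosen with earlier results of these data known. Besides the members and Pml, up to 4 genes of each pathway list with the smallest p among those called after APAP were named, relatives of the members, and the 3 genes nearest each called member, leaving out predicted genes, microRNAs and small nucleolar RNAs. Alternatives were no filter, a mean log2 of at least 7, log2 of the value plus 16, averaging the probe sets of each gene, quantile normalization, a trended variance, the replicate block, a fit of the compared groups only and each array left out. Counts of the pathway lists with an array left out were added after seeing the data. Promoter sequences came from RefSeq (GRCm38.p6), with 8 of the 10 members matched.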

Additional observations from a re-analysis of the deposited data

Results flagged for a closer look

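The change from 2 h to 6 h differed between genotypes in 4 members by the interaction test, KO step minus wt step on the log2 scale: Btg2 by -3.02, Plk3 by -2.48, Plk2 by -1.35 and Mdm2 by -1.30. Btg2 and Plk3 stepped down in KO (-3.43 and -2.54) with steps of -0.41 and -0.06 in wt. Plk2 and Mdm2 stepped up in wt (1.12 and 1.2) with steps of -0.23 and -0.10 in KO. The Mdm2 step in KO was 0.37 without KO 6 h replicate 2 and -0.57 (adjusted p = 0.0139) without KO 6 h replicate 1, so it is not shown to be flat.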

How the results depend on the processing

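Over 20 alternatives, the 130 single-gene results (9 members and Pml in 13 comparisons) gave 2574 refits. Of these, 2457 kept their side of the threshold, 97 lost a call and 20 gained one, and 0 called values changed sign. Values that were not called could change sign and still count as kept, as Plk2 did in KO at 6 h. Counts of members called with an array left out ranged from 3 to 6 in wt at 2 h, 6 to 8 in wt at 6 h, 5 to 6 in KO at 2 h, 4 to 5 in KO at 6 h and 3 to 3 for the wt step from 2 h to 6 h. They ranged from 3 to 6 for the KO step, 0 to 5 for KO against wt at 6 h, 0 to 4 for the mean of the 3 conditions, 0 to 4 for the response difference at 6 h and 0 to 6 for the difference of the steps. Fitting only the groups compared gave 3 members for the KO step, 1 for KO against wt at 6 h (Plk2) and 0 for the difference of the steps, with fewer arrays behind each spread. With the replicate number as a block the member counts were those of the fit without the replicate block in all 13 comparisons (such as 8 in wt at 6 h). The block changed no call of a member. Deviations of same-numbered arrays correlated at -0.13 to 0.18 between groups. No strong shared deviation by replicate number was thus seen, but such correlations cannot exclude a weaker pairing of the arrays. No other alternative moved a member count by over 1.5 times. The count of all genes called was less stable: with an array left out it ranged from 800 to 2317 for wt at 2 h (2166), 172 to 1691 for KO against wt at 6 h (1538), 8 to 777 at 2 h (342), 65 to 667 for the mean (304), 18 to 286 for the response difference at 6 h (83) and 32 to 1839 for the difference of the steps (1198). The other alternatives took these last 5 as low as 142, 52, 191, 62 and 95. Leaving out an array gave as few as 4162 for wt at 6 h (6554), 2935 for KO at 2 h (5353), 3845 for KO at 6 h (5949) and 2460 for the wt step (4727), 0 to 3 for untreated KO against wt (1) and 2 to 33 for the response difference at 2 h (5), and fitting only the groups compared gave 3101 for the KO step (5401). Quantile normalization moved the share called higher from 33.9% to 44.7% for KO at 2 h, 20.5% to 50.3% for KO against wt at 2 h, 18.4% to 38.7% for the mean, 40% to 28.6% for the response difference at 2 h and 70.7% to 49.1% for the difference of the steps. Pairs of arrays limit what can be shown: a genotype difference of Cdkn1a had a 95% interval from -2.18 to 0.72 at 6 h.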

Other observations

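Genes with replicates over 1 log2 unit apart were 184 of 17052 (1.08%) in KO at 6 h and 192 (1.13%) in KO at 2 h, against 38 to 86 in the other 4 groups. Among the members, Plk3 (1.68), Btg2 (1.39) and Trp53inp1 (1.07) were that far apart in KO at 6 h, each higher in replicate 1, and Cdkn1a was 1.77 and 2.16 apart in the untreated groups.

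Of 4 measured bile duct markers, Epcam (0.94 and 0.77) and Sox9 (1.74 and 1.29) rose in both genotypes at 6 h. Krt19 stood at 0.44 in wt and -0.38 in KO and Krt7 at 0.28 and -0.12, none of which passed.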
